A study of Mus musculus with 30 samples.

Results

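The serine and one-carbon metabolism genes described here are Phgdh, Psat1, Psph, Shmt1, Shmt2, Mthfd1, Mthfd2, Mthfd1l, Aldh1l2 and Gldc, 10 of the 20569 protein-coding genes of the count table. They were chosen by their place in the pathway, with the C59 and DMSO values of these same libraries already known. Their differences between C59 and DMSO are therefore given as a description, with standard errors and without p-values. All 10 genes were found by symbol and passed the filter on low counts in every comparison.

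RNA was measured by polyA RNA-sequencing of forelimb buds from wild-type Swiss Albino mouse embryos. Pregnant females received a single intraperitoneal injection at E10.5 of DMSO, the solvent control, or of Wnt-C59 (C59), a small molecule that inhibits porcupine and so blocks the secretion of WNT proteins. Forelimb buds were collected 1, 6, 12, 18 and 24 h later, which gives 10 groups of 3 libraries, 30 in all, with each library made from a pair of forelimb buds. Controls received DMSO in saline, whereas C59 was diluted in a vehicle that also held methylcellulose and Tween-20, so the vehicles differed between the treatments. The drug was given to the mother and was not targeted to a tissue, and whole buds with all their cell types were sequenced.

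Serine is made from a glycolytic intermediate by PHGDH, PSAT1 and PSPH acting in sequence. The serine hydroxymethyltransferases SHMT1 in the cytosol and SHMT2 in mitochondria pass a carbon from serine to folate and leave glycine. MTHFD2, MTHFD1L and ALDH1L2 handle the folate-bound carbon in mitochondria, MTHFD1 handles it in the cytosol, and GLDC opens the glycine cleavage system, a second source of such carbons. The carbons are used to build purines and thymidylate and to regenerate methionine, and this supply is known to matter for dividing embryonic cells.

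The members lie on 7 autosomes (GRCm38 coordinates). Phgdh is at chr3:98313170-98339990, Psat1 at chr19:15904678-15947337 and Psph at chr5:129765558-129787449, all on the minus strand. Shmt1 is at chr11:60788104-60811718 and Shmt2 at chr10:127517123-127522444, both on the minus strand. Mthfd1 is at chr12:76255298-76319803 and Mthfd1l at chr10:3973118-4167081, both on the plus strand, whereas Mthfd2 at chr6:83305691-83325908, Aldh1l2 at chr10:83487450-83534140 and Gldc at chr19:30098447-30175429 are on the minus strand. Exons of 5 members share bases with an exon of a gene on the opposite strand, and the strand used in counting was not given in the sources used here, so reads from such stretches cannot be told apart. The widest shared stretches are in Aldh1l2, with 1056 of 7503 exon bases shared with D10Wsu102e, and in Psph, with 452 of 4329 shared with Cct6a. These neighbours had higher counts than the members, with a median of 1786 for D10Wsu102e and 8024 for Cct6a. Their part in the values of Aldh1l2 and Psph was not tested. Phgdh, Psat1, Mthfd2, Mthfd1l and Gldc share none.

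Promoter stretches of Mthfd2, Gldc, Shmt1 and Psat1 are printed because these 4 members had the lowest C59 to DMSO ratios at 12 h. Each is 100 bases long and ends 31 bases before the RefSeq transcription start (GRCm38.p6), on the minus strand and outside annotated exons, with the letters CCAAT or their reverse complement in capitals. They are chr6:83317635-83317734 for Mthfd2, chr19:30175472-30175571 for Gldc, chr11:60811296-60811395 for Shmt1 and chr19:15925090-15925189 for Psat1. For Mthfd2, Shmt1 and Psat1 the stretch lies inside the gene span given above, since the RefSeq start used here is not the outer end of that span.
Mthfd2: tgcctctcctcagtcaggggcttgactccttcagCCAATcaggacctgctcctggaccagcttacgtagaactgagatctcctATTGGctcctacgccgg
Gldc: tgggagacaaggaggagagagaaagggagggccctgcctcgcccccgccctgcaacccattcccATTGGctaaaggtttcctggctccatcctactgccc
Shmt1: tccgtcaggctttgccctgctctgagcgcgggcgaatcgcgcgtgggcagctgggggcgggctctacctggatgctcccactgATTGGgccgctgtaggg
Psat1: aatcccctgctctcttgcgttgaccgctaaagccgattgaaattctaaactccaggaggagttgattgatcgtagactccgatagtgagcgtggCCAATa

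CCAAT, the letters recognised by the factor NF-Y, was present on either strand in the promoter window (250 bases before to 50 after the start) of 7 of the 9 members with a window, and in 41.1% of 27025 genes. Psph, whose level did not follow the others, also held it, whereas Shmt2 and Mthfd1l did not. TGATGNAA (N for any base), the type of letters bound by ATF4, was found in the windows of 0 of 9 members and of 4.51% of genes. CACGTG, an E-box bound by MYC proteins, was found in 0 of 9 and 8.09%, and CTTTGA, the core bound by TCF/LEF factors, in 0 of 9 and 18.2%. These counts say only which letters occur in these windows.

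The libraries held between 18188636 and 38974885 counts. Libraries of a group were never closer to each other than counting noise allows, and 5 libraries stood apart from their group, with both of their chi-square values per degree of freedom more than 2 times that of the remaining pair. These were DMSO 1 h replicate 1, DMSO 6 h replicate 1, DMSO 18 h replicate 1, C59 18 h replicate 3 and C59 24 h replicate 2. Axin2, a feedback target of WNT signaling used as a check of the treatment, was at 108, 118 and 104 CPM in DMSO at 6 h (CPM, the count relative to the library size, with TMM normalization) and at 29.0, 29.2 and 26.5 CPM in C59. Its log2 fold change was -1.97 ± 0.06 at 6 h and -1.45 ± 0.06 at 12 h (SE; edgeR, adjusted p = 7.6e-11 and 1.4e-07), and -0.16 ± 0.09 at 18 h and -0.08 ± 0.07 at 24 h. Axin2 was also lower at 1 h, at -0.19 ± 0.04 (adjusted p = 0.028). It passed the test at 1, 6 and 12 h and did not pass it at 18 h (adjusted p = 0.33) or 24 h (adjusted p = 0.51).

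Compared per length, by the authors' FPKM, the members covered a wide range of levels. In DMSO at 1 h Phgdh was highest at 95.7 ± 3.24 FPKM (SD, n = 3), followed by Shmt2 at 44.6 ± 1.97, Psat1 at 38.3 ± 1.02, Mthfd1 at 34.2 ± 0.604, Mthfd2 at 29.1 ± 1.42 and Shmt1 at 25.8 ± 0.987. Mthfd1l at 16.5 ± 1.23, Gldc at 10.47 ± 0.84 and Psph at 7.78 ± 0.651 FPKM came next. Aldh1l2 was lowest at 0.412 ± 0.0583 FPKM and rested on as few as 49 counts in a library. No neighbours in this order overlapped between their libraries. In C59 at 12 h the order had changed. Mthfd1 stood above Psat1, Shmt1 above Mthfd2 and Psph above Mthfd1l, with 18.4 ± 1.86, 16.4 ± 1.13, 10.4 ± 0.138, 9.06 ± 0.165, 6.89 ± 0.485 and 6.31 ± 0.0767 FPKM for these 6 genes in turn. Mthfd1 and Psat1 overlapped there, whereas the libraries of the other pairs did not.

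At 1 h the members differed little between the treatments. The threshold for a call was a Benjamini-Hochberg adjusted p of 0.05 in edgeR. No member passed it, with 1 of 10 at an unadjusted p below 0.05 and 0 called by DESeq2, beside 1.61% of 13076 tested genes called lower and 1.14% called higher. The largest members' differences were Aldh1l2 at -0.37 ± 0.21 and Phgdh at -0.14 ± 0.04 on the log2 scale (SE), and the other 8 lay between -0.07 ± 0.05 (Shmt1) and 0.08 ± 0.05 (Psat1). Without DMSO 1 h replicate 1 none was called either. The summed level of 4 Y-linked genes (Ddx3y, Eif2s3y, Kdm5d and Uty) was 7.66, 9.03 and 0.0469 FPKM in DMSO and 37.0, 38.2 and 21.2 FPKM in C59 at 1 h, and the part of this difference in sex was not tested.

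At 6 h, 8 of the 10 members were called lower in C59 and none higher, beside 11.4% of 13100 tested genes called lower. The median log2 fold change of the members was -0.27, against 0.01 over all tested genes. The lowest values were those of Shmt1 at -0.65 ± 0.05 and Mthfd2 at -0.59 ± 0.06. Mthfd1l was at -0.37 ± 0.07, Psat1 at -0.34 ± 0.04, Mthfd1 at -0.29 ± 0.05, Gldc at -0.26 ± 0.06, Phgdh at -0.22 ± 0.04 and Shmt2 at -0.16 ± 0.04. In each of these 8 genes all C59 libraries lay below all DMSO libraries, as they did for 18.5% of 14039 genes. Without DMSO 6 h replicate 1 the count was also 8. With all 30 libraries sharing the estimate of the spread, 5 were called, without Phgdh, Shmt2 and Gldc. The groups of 6 h also differed in sex, since the same Y-linked genes summed to between 19.8 and 33.2 FPKM in the C59 libraries and to 0 in all 3 DMSO libraries, and the part of this in the 6 h differences was not tested.

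At 12 h the same 8 genes were at their lowest relative to DMSO, and 5 of them had a log2 fold change below -1. In this comparison 25.5% of 13324 tested genes were called lower, and 1.43% were called lower with a log2 fold change below -1. The median log2 fold change of the members was -0.96, against 0.02 over all tested genes. The C59 libraries lay below all 15 DMSO libraries of any time point for 7 members, all of these 8 except Gldc, and for 14.7% of 14039 genes. Both counts come from the contrast that was known when the members were chosen. In buds measured as bulk RNA, fewer cells that express a gene and less of its RNA per cell cannot be told apart. The Y-linked sum was above 18 FPKM in 1 library of each treatment at 12 h, so sex was not divided by treatment there.

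**Figure D1:**
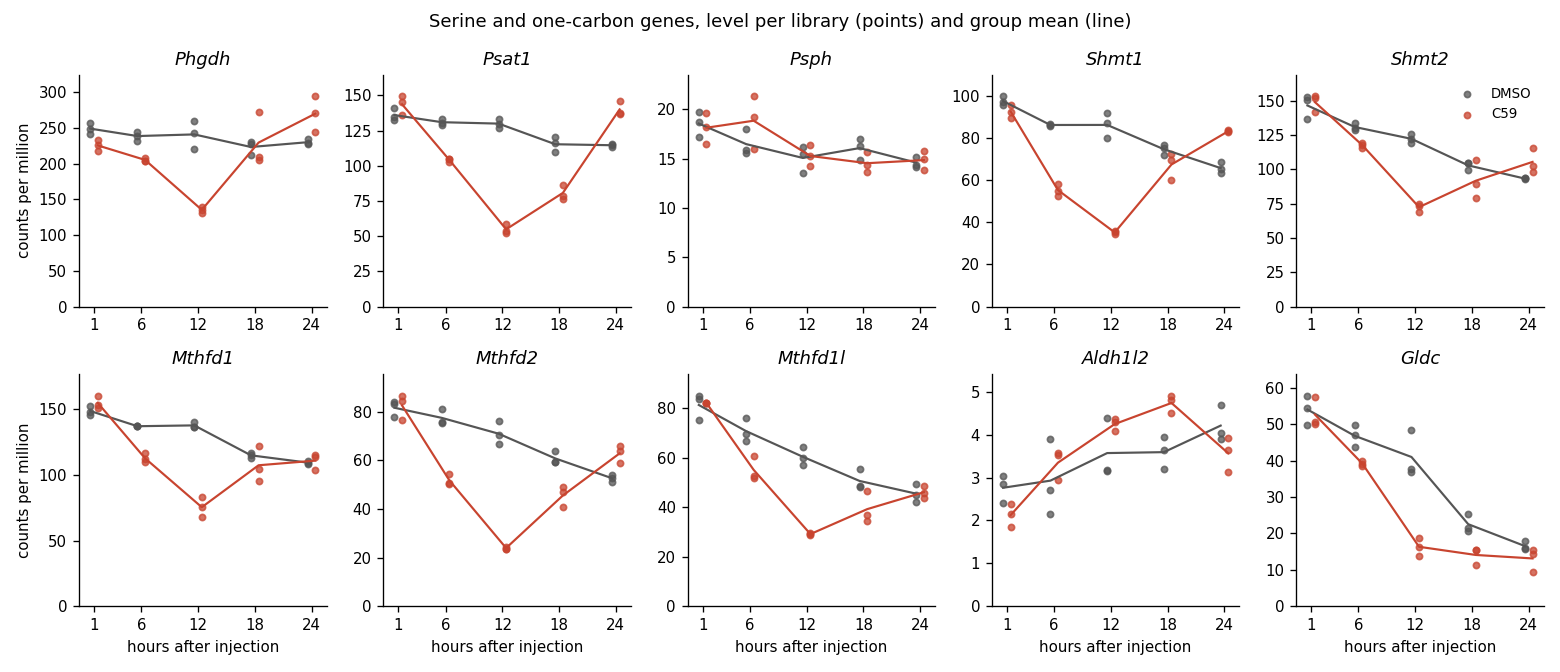
Level of each gene in CPM (vertical axis) against hours after injection. Points are the 3 libraries of a group, grey for DMSO and red for C59, and lines join the group means; 8 genes reach a minimum relative to DMSO in C59 at 12 h, whereas Psph and Aldh1l2 do not.

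Of the enzymes that make serine, the first and the second were lower in C59 at 12 h. Phgdh, which commits the glycolytic intermediate to serine, was at 243, 220.0 and 259 CPM in DMSO and at 139.8, 135 and 131 CPM in C59. These groups stood well apart, with a log2 fold change of -0.83 ± 0.06 (SE), and C59 was at 56.2% of DMSO. Psat1, which adds the amino group, was at 127, 133 and 129.9 CPM in DMSO and at 58.8, 52.0 and 53.8 CPM in C59. Its log2 fold change was -1.24 ± 0.05, so its RNA was lowered further than that of Phgdh, to 42.2% of DMSO.

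Psph, which removes the phosphate in the last step, was at 13.6, 16.1 and 15.5 CPM in DMSO and at 16.3, 15.3 and 14.2 CPM in C59 at 12 h. The groups overlapped, and the log2 fold change was 0.02 ± 0.10. Its largest difference was at 6 h, with 15.9, 15.5 and 18.0 CPM in DMSO and 21.4, 19.2 and 15.9 CPM in C59, a difference of 0.19 ± 0.11 (log2 scale) between overlapping groups. Psph was called in none of the 5 comparisons with DMSO. At 1, 18 and 24 h its log2 fold changes were -0.03 ± 0.09, -0.13 ± 0.11 and 0.03 ± 0.09.

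Both serine hydroxymethyltransferases were lower at 12 h, the cytosolic one more so. Shmt1 was at 86.9, 79.8 and 91.8 CPM in DMSO and at 35.7, 35.3 and 34.5 CPM in C59, a log2 fold change of -1.29 ± 0.06. Shmt2 was at 119, 122 and 125 CPM in DMSO and at 73.3, 69.2 and 74.9 CPM in C59, a log2 fold change of -0.75 ± 0.05. The log2 ratio of Shmt2 to Shmt1 in FPKM rose accordingly from 0.757 ± 0.0084 (SD, n = 3) in DMSO to 1.3 ± 0.0902 in C59 at 6 h, and stood at 0.702 ± 0.0899 and 1.18 ± 0.0665 at 12 h. At 1 h the ratio was already higher in C59, at 0.787 ± 0.103 in DMSO and 0.930 ± 0.0047 in C59, and its libraries did not overlap. At 18 h it was 0.658 ± 0.0134 in DMSO and 0.603 ± 0.0853 in C59, values that overlapped.

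Of Mthfd2 and Mthfd1, the mitochondrial enzyme was lowered more. Mthfd2, the mitochondrial dehydrogenase and cyclohydrolase, was at 70.3, 66.7 and 76.1 CPM in DMSO and at 24.6, 23.7 and 23.6 CPM in C59 at 12 h. Its log2 fold change of -1.57 ± 0.07 was the lowest of the 10 members, and C59 was at 33.7% of DMSO. Mthfd1, which carries out the matching steps in the cytosol, was at 137, 137 and 139.9 CPM in DMSO and at 67.9, 75.5 and 82.9 CPM in C59, a log2 fold change of -0.87 ± 0.07. The log2 ratio of Mthfd2 to Mthfd1 in FPKM was -0.296 ± 0.0769 in DMSO and -1.02 ± 0.165 in C59 at 12 h. At 24 h the order was turned, with -0.412 ± 0.039 in DMSO and -0.179 ± 0.0172 in C59, and no overlap at either time.

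Mthfd1l, which releases formate from mitochondria, was at 59.8, 57.2 and 64.3 CPM in DMSO and at 29.1, 29.7 and 28.7 CPM in C59 at 12 h. The log2 fold change was -1.05 ± 0.06, and the C59 libraries lay close together. The log2 ratio of Mthfd1l to Mthfd1 was -1.34 ± 0.0672 (SD, n = 3) in DMSO and -1.54 ± 0.162 in C59 at 12 h, and its libraries overlapped. Aldh1l2, which oxidises the mitochondrial carbon to carbon dioxide, was at 3.14, 4.4 and 3.17 CPM in DMSO and at 4.36, 4.29 and 4.09 CPM in C59, groups that overlapped. Its largest difference was at 18 h, with 3.19, 3.64 and 3.94 CPM in DMSO and 4.91, 4.79 and 4.51 CPM in C59. The log2 fold change there was 0.42 ± 0.16 between groups that did not overlap, and Aldh1l2 was not called at any time point.

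**Figure D2:**
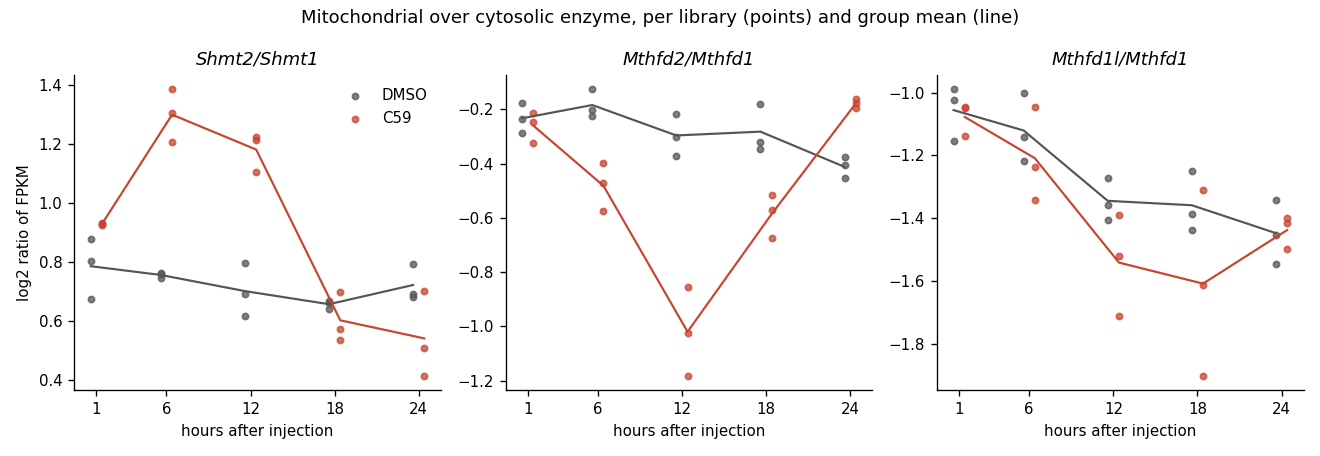
Log2 ratio of FPKM of a mitochondrial over a cytosolic enzyme (vertical axis) against hours after injection, for Shmt2 over Shmt1, Mthfd2 over Mthfd1 and Mthfd1l over Mthfd1. Points are libraries, grey for DMSO and red for C59, and lines join group means; at 12 h the first ratio is higher in C59 (1.18 against 0.702) and the second lower (-1.02 against -0.296).

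Gldc, the glycine decarboxylase of the glycine cleavage system, was at 37.8, 36.8 and 48.4 CPM in DMSO and at 13.8, 16.4 and 18.8 CPM in C59 at 12 h. The groups were far apart, with a log2 fold change of -1.32 ± 0.13. The C59 values at 12 h overlapped those of DMSO at 24 h, where Gldc was at 17.9, 16.1 and 15.6 CPM.

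At 18 h, 3 members (Psat1, Mthfd2 and Gldc) were called lower in C59, beside 3.62% of 13413 tested genes. Psat1 was at 116, 109.7 and 120.3 CPM in DMSO and at 86.7, 76.7 and 78.9 CPM in C59, a log2 fold change of -0.50 ± 0.09. Mthfd2 was at -0.40 ± 0.10 and Gldc at -0.66 ± 0.15 on the same scale, and neither overlapped between groups. Shmt1 was at -0.13 ± 0.10, Shmt2 at -0.15 ± 0.12, Mthfd1 at -0.08 ± 0.11 and Phgdh at 0.06 ± 0.12, and the 7 members that were not called lay between -0.35 ± 0.13 (Mthfd1l) and 0.42 ± 0.16 (Aldh1l2). Phgdh in C59 18 h replicate 3 stood at 273 CPM, against 209.7 and 206 CPM in the other libraries of its group. Without that library 4 members were called, Shmt2 at -0.27 in addition, and Phgdh was at -0.09 in place of 0.06. Leaving out any DMSO library of 18 h or C59 18 h replicate 2 left 0 called, and leaving out C59 18 h replicate 1 left 2.

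At 24 h the direction had turned for some members. Psat1, Shmt1 and Mthfd2 were called higher in C59, beside 2.88% of 13675 tested genes called higher. Shmt1 was at 68.8, 65.2 and 63.2 CPM in DMSO and at 82.6, 83.4 and 83.6 CPM in C59, a log2 fold change of 0.35 ± 0.06. Psat1 was at 0.30 ± 0.05 and Mthfd2 at 0.26 ± 0.07. All C59 libraries also lay above all DMSO libraries for Phgdh (0.24 ± 0.07) and Shmt2 (0.18 ± 0.07), which were not called, and for 12.6% of 14039 genes. Mthfd1 at 0.03 ± 0.06 and Mthfd1l at 0.03 ± 0.08 overlapped. Gldc was at -0.31 ± 0.15 and was not called. Its C59 libraries were at 15.5, 14.4 and 9.49 CPM, and the highest of them nearly reached the lowest DMSO library, at 15.6 CPM. Aldh1l2 was at -0.23 ± 0.17. Without DMSO 24 h replicate 1 or replicate 3 the count fell to 1, and 2 members were called without C59 24 h replicate 2 and 4 without replicate 3. The Y-linked sum was 20.1, 0.0147 and 19.6 FPKM in DMSO and 20.1, 25.0 and 19.3 FPKM in C59. The part of sex in the 24 h differences was not tested.

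**Figure D3:**
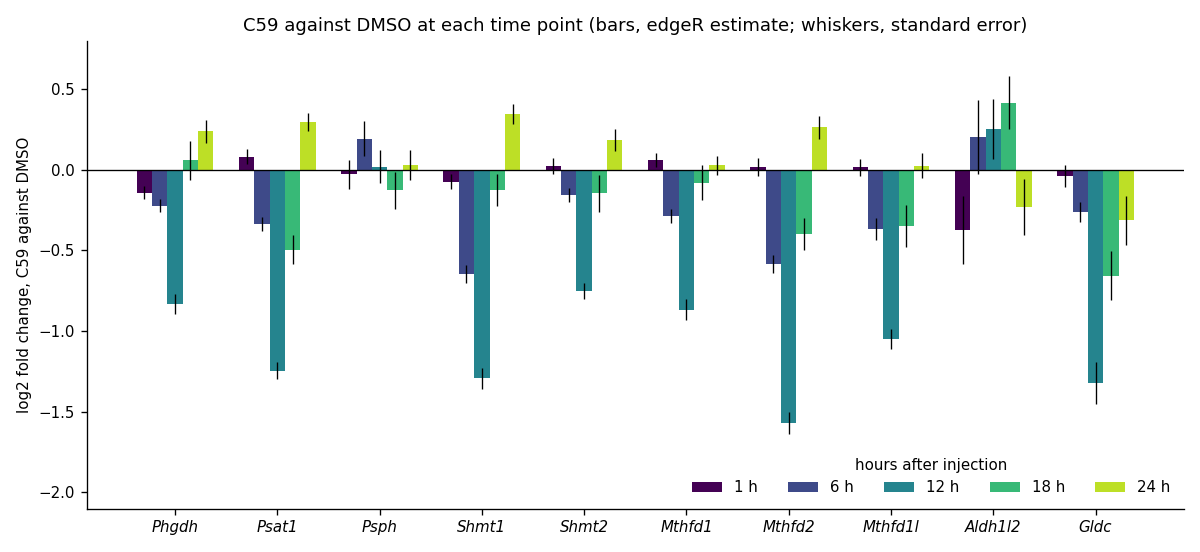
Log2 fold change of C59 against DMSO (vertical axis) for each gene at 1, 6, 12, 18 and 24 h, with bars for the edgeR estimate and whiskers for its standard error. The 12 h bars are lowest for 8 genes (from -0.75 for Shmt2 to -1.57 for Mthfd2), and Psat1, Shmt1 and Mthfd2 are above 0 at 24 h.

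The change of the C59 effect between time points was taken as an interaction contrast over all 30 libraries. From 6 to 12 h the effect became lower for 8 of 10 members, beside 7.39% of 14039 tested genes. From 12 to 18 h it became higher for 8 members, beside 9.08%, and from 12 to 24 h again for 8, beside 17.3%. The members concerned were the same 8 each time, all except Psph and Aldh1l2. Psph and Aldh1l2 share the widest stretches with opposite-strand genes, and the part of those genes in their values was not tested. Without C59 18 h replicate 3 the count from 12 to 18 h was also 8, and without DMSO 18 h replicate 1 it was 7, with Gldc no longer called. Without DMSO 6 h replicate 1 (6 to 12 h) or C59 24 h replicate 2 (12 to 24 h) the counts were 8. The groups of 6 h differed in sex, and the part of this in the change from 6 to 12 h was not tested.

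In DMSO alone, the members were followed over development. The DMSO values were among those known when the members were chosen, and whether this comparison played a part in the choice is not known. The adjusted p-values of members over development are therefore a description and not an independent test. From 1 to 24 h, 8 members fell and Aldh1l2 rose, beside 27.6% of 13716 tested genes called lower and 28.9% called higher (edgeR on the 15 DMSO libraries). Gldc fell most, from 54.3, 49.8 and 57.8 CPM at 1 h to 17.9, 16.1 and 15.6 CPM at 24 h, a change of -1.71 ± 0.10 on the log2 scale (edgeR, adjusted p = 4.4e-10). The Gldc groups were far apart. Mthfd1l followed with -0.84 ± 0.07 (adjusted p = 5.9e-08), Shmt2 with -0.65 ± 0.05 (adjusted p = 3.1e-09) and Mthfd2 with -0.63 ± 0.06 (adjusted p = 5.3e-08). Shmt1 fell by 0.57 ± 0.05 (adjusted p = 8.7e-08), Mthfd1 by 0.44 ± 0.04 (adjusted p = 2.3e-08), Psph by 0.34 ± 0.09 (adjusted p = 0.0031) and Psat1 by 0.25 ± 0.04 (adjusted p = 1.0e-04) on the log2 scale. Phgdh at -0.11 ± 0.05 did not pass (adjusted p = 0.073).

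Aldh1l2 rose from 3.04, 2.40 and 2.85 CPM at 1 h to 4.68, 3.90 and 4.04 CPM at 24 h, a change of 0.60 ± 0.20 on the log2 scale (edgeR, adjusted p = 0.018). Its groups did not overlap. The call was lost without DMSO 1 h replicate 2 (log2 fold change 0.51) and without DMSO 24 h replicate 1 (0.52).

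The steps between neighbouring times were unequal. From 1 to 6 h, 2 members (Shmt1 and Shmt2) were called lower, beside 2.3% of genes. From 6 to 12 h none was called, with 3 of 10 at an unadjusted p below 0.05 and 0 by DESeq2, beside 1.47%. From 12 to 18 h, 7 were called lower, beside 6.77%, with Gldc at -0.87 ± 0.10 (edgeR, adjusted p = 5.7e-05) and the other 6 between -0.17 and -0.26. From 18 to 24 h, 3 (Shmt1, Mthfd2 and Gldc) were called lower, beside 4.75%. The counts of the steps depended on single libraries, with 0 or 1 from 1 to 6 h when any 1 library was left out, 3 from 12 to 18 h without DMSO 18 h replicate 2, 4 without DMSO 12 h replicate 3, and 0 from 18 to 24 h without DMSO 24 h replicate 3.

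The comparison of DMSO 24 h with DMSO 1 h and that of C59 with DMSO at 12 h share no library. Set side by side, 9 of 10 members had the same sign in both, beside 72.7% of 13292 genes tested in both, and Aldh1l2 among the 9 was at 0.25 ± 0.19 under C59. The size was larger under C59 for 7 members, beside 45.8% of genes. Psat1 was at -0.25 over development and at -1.24 under C59, and Phgdh at -0.11 and -0.83. Gldc was the reverse, at -1.71 and -1.32. Shmt2 had nearly equal values, at -0.65 and -0.75.

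**Figure D4:**
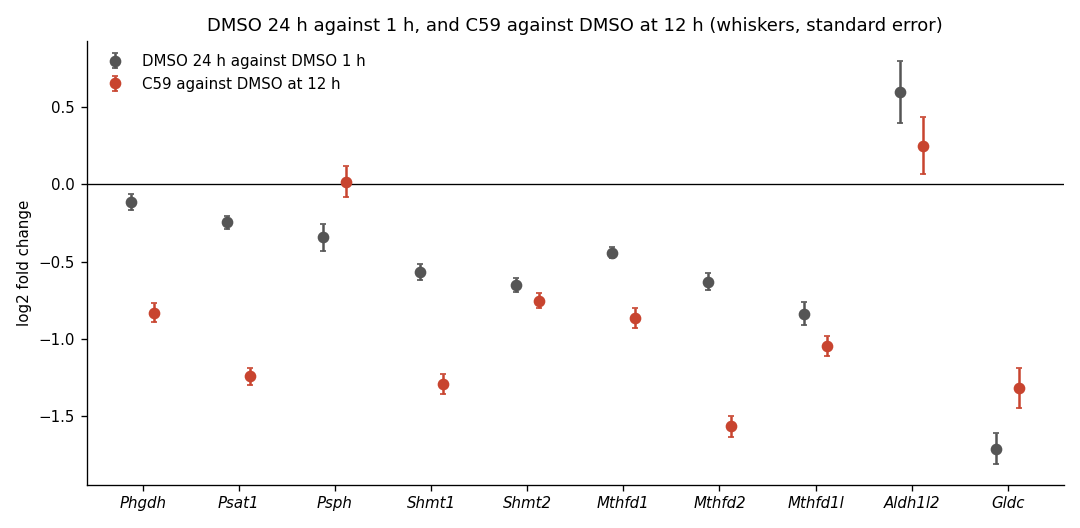
Log2 fold change (vertical axis) of each gene for DMSO 24 h against DMSO 1 h in grey and for C59 against DMSO at 12 h in red, with standard errors as whiskers. Psat1 and Phgdh lie further below 0 under C59, whereas Gldc lies further below 0 over development (-1.71 against -1.32).

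The members' likeness over the 30 libraries was described by Pearson's r of log2 CPM, without a test, since libraries share time, treatment and normalization. Between the 8 members other than Psph and Aldh1l2, a subset taken after their values were seen, r ranged from 0.228 (Phgdh with Gldc) to 0.956 (Shmt1 with Mthfd2) over 28 pairs, with a median of 0.839. Aldh1l2 had a negative r with every other member, down to -0.78 with Shmt2. The 3 non-member genes of 14037 most like each member were Gps1, Foxk2 and Gpat4 for Phgdh (0.925, 0.917 and 0.908), and Slc35b1, Tfdp1 and Ybx3 for Psat1 (0.952, 0.952 and 0.950). They were Spg7, Med9 and Vasp for Psph (0.811, 0.801 and 0.780). For Shmt1 they were Ctps, a CTP synthase, with Fkbp5 and Usp10 (0.983, 0.969 and 0.962). For Shmt2 they were Mcm5, a subunit of the replicative helicase, with Actl6a and Dctpp1 (0.975, 0.970 and 0.967). For Mthfd1 they were Vars, Eif3b and Cth (0.974, 0.969 and 0.969), and for Mthfd2 Ppa1, Tlnrd1 and Umps, the last an enzyme of pyrimidine synthesis (0.977, 0.973 and 0.972). For Mthfd1l they were Kpnb1, Ppp2r1b and Stk39 (0.975, 0.972 and 0.968), for Aldh1l2 Trio, Slit2 and Lonrf2 (0.905, 0.888 and 0.884), and for Gldc they included Crmp1 and Ccnj (0.973 and 0.969).

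The genes around the members in the pathway were tested in the same fits. Over 5 lists of 58 genes (folate cycle and transport, glycine cleavage partners, methionine cycle, serine and glycine transport and breakdown, and de novo purine synthesis), 48 were tested at 12 h. Of these, 28 were called lower and 7 higher in C59, beside 25.5% and 22% of all tested genes, with a median log2 fold change of -0.30. At 6 h, 19 were called lower and 1 higher, beside 11.4% and 8.2%.

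In the folate list, 4 of 13 tested genes fell and 2 rose at 12 h. These counts were near the 25.5% and 22% over all tested genes. Tyms, the thymidylate synthase, was at 146, 137 and 145 CPM in DMSO and at 90.0, 90.4 and 92.6 CPM in C59 (log2 fold change -0.65 ± 0.05, edgeR adjusted p = 2.4e-06). Ggh, which trims folate tails, rose by 0.53 ± 0.11 (adjusted p = 0.0023). Tyms was at -0.10 at 6 h, where it did not pass. Aldh1l1, the cytosolic relative of Aldh1l2, was lower at 24 h, with 1.85, 2.34 and 1.55 CPM in DMSO and 0.708, 0.853 and 1.07 CPM in C59 (-1.13 ± 0.28, adjusted p = 0.035).

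Of 4 listed partners of Gldc in glycine cleavage, 3 fell with it at 12 h, beside 25.5% of all tested genes. Gcsh, the carrier protein, was at 72.4, 69.7 and 76.2 CPM in DMSO and at 40.1, 37.8 and 39.9 CPM in C59 (-0.89 ± 0.06, edgeR adjusted p = 1.6e-06). Amt (-0.27 ± 0.07, adjusted p = 0.011) and Dld (-0.25 ± 0.05, adjusted p = 0.0015) fell less. Lias, a listed partner that is not itself a part of the glycine cleavage system, was at -0.08 ± 0.06 and did not pass.

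The methionine cycle list also holds Cth and Cbs, which lie on the branch to cysteine and outside the cycle itself. Of its 9 tested genes, 5 fell at 12 h and none rose, beside 25.5% and 22% of all tested genes. Cth, which makes cysteine from cystathionine, was at 23.2, 21.9 and 27.8 CPM in DMSO and at 7.68, 8.99 and 9.75 CPM in C59 (-1.46 ± 0.12, edgeR adjusted p = 7.4e-06). Ahcy, which clears S-adenosylhomocysteine, fell by 1.19 ± 0.08 (adjusted p = 2.1e-06) and Mat2a, which makes S-adenosylmethionine, by 0.73 ± 0.05 (adjusted p = 2.3e-06). Mtr, the methionine synthase, was at 0.00 ± 0.06. Cbs was lower at 18 h, with 3.35, 2.54 and 2 CPM in DMSO and 0.795, 1.05 and 1.05 CPM in C59 (-1.42 ± 0.28, adjusted p = 0.019).

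In the list for serine and glycine transport and breakdown, 5 of 10 tested genes fell and 4 rose at 12 h. Over all tested genes 25.5% fell and 22% rose. The neutral amino acid transporter Slc1a5 was at 49.6, 46.8 and 51.9 CPM in DMSO and at 24.8, 22.4 and 22.9 CPM in C59 (-1.08 ± 0.07, edgeR adjusted p = 1.5e-06). Its relative Slc1a4 fell by 0.99 ± 0.11 (adjusted p = 4.6e-05). Shpk, counted among the 4 that rose, is a sedoheptulose kinase and neither moves nor breaks down serine or glycine. At a low level, it was at 1.1, 1.67 and 0.792 CPM in DMSO and at 3.27, 1.72 and 2.53 CPM in C59 (1.06 ± 0.34, edgeR adjusted p = 0.024). Its groups did not overlap, although the highest DMSO and the lowest C59 library were close.

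In de novo purine synthesis only some of the enzymes use formyl groups supplied by folate. Of its list, 11 of 12 tested genes were lower and 1 higher at 12 h, beside 25.5% and 22% of all tested genes. At 6 h 10 were lower, beside 11.4%. The first enzyme, Ppat, was at 99.7, 86.9 and 102 CPM in DMSO and at 48.5, 49.5 and 52.4 CPM in C59 (-0.94 ± 0.07, edgeR adjusted p = 3.2e-06). Atic, which carries out the last formyl transfer, fell by 0.67 ± 0.06 (adjusted p = 9.3e-06). Adssl1, the muscle form of adenylosuccinate synthase, rose by 0.71 ± 0.23 (adjusted p = 0.026). The median log2 fold change of the list was -0.50 at 12 h and -0.01 at 18 h, where none was called in edgeR and 4 had an unadjusted p below 0.05.

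**Figure D5:**
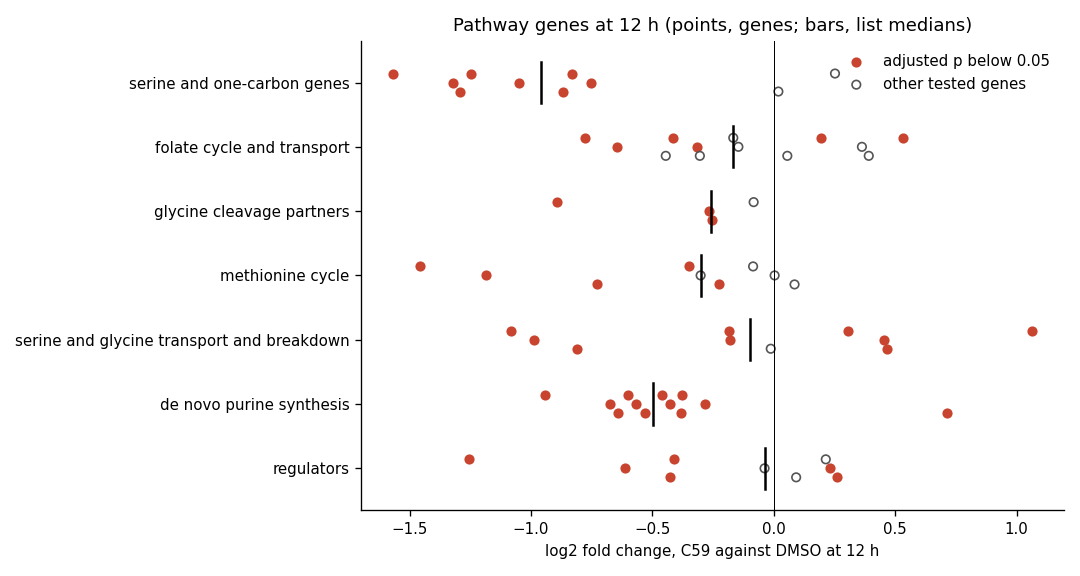
Log2 fold change of C59 against DMSO at 12 h (horizontal axis) for the tested genes of the pathway and its neighbouring lists. Filled red points have an adjusted p below 0.05, open points do not, and black bars are list medians, which lie at -0.96 for the serine and one-carbon genes, -0.50 for purine synthesis and -0.04 for the regulators.

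Of 9 genes for factors known to act on this pathway or on stress responses, 4 fell and 2 rose at 12 h. Over all tested genes 25.5% fell and 22% rose. Mycn was at 146, 149.7 and 138 CPM in DMSO and at 47.4, 53.8 and 53.9 CPM in C59 at 6 h, and its log2 fold change was -1.49 ± 0.06 at 6 h and -1.25 ± 0.08 at 12 h (edgeR, adjusted p = 1.2e-09 and 1.5e-06). At 18 h it was higher, at 0.35 ± 0.08 (adjusted p = 0.042). Myc fell by 0.61 ± 0.09 (adjusted p = 0.00038), Atf4 by 0.43 ± 0.04 (adjusted p = 3.1e-05) and Trp53 by 0.41 ± 0.05 (adjusted p = 4.5e-05) at 12 h. Atf5 rose by 0.23 ± 0.07 (adjusted p = 0.020) and Kdm4c by 0.26 ± 0.09 (adjusted p = 0.033). Ddit3 at 0.21 ± 0.17, Nfe2l2 at 0.09 ± 0.09 and Ehmt2 at -0.04 ± 0.04 did not pass. Whether any of these bears on the members was not tested.

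Genes of the cell cycle and of cell types moved at the same times. Over all tested genes, 25.5% were called lower and 22% higher at 12 h. At 6 h the shares were 11.4% and 8.2%, and at 18 h 3.62% were called lower. All 18 genes of an S phase list fell at 12 h, from Cdc6 at -1.24 ± 0.06 (edgeR, adjusted p = 3.7e-07) to Rfc2 at -0.26 ± 0.05 (adjusted p = 0.0021), and their summed level was 4572 to 4870 CPM in DMSO and 2860 to 2995 CPM in C59. Of 15 G2 and mitosis genes 10 fell at 12 h, with Bub1 at -0.62 ± 0.06 (adjusted p = 1.6e-05) and Nusap1 at 0.14 ± 0.06 (adjusted p = 0.085) as extremes, and 12 fell at 18 h, when 3 members were called. Summed limb mesenchyme markers (8 genes) were at 1860 to 1979 CPM in DMSO and 1198 to 1259 CPM in C59 at 12 h, with 7 lower and 1 higher. Summed chondrogenic markers (8 genes) were at 891 to 954 CPM and 1699 to 2463 CPM, with 7 higher, and ectoderm markers (9 genes) at 303 to 337 CPM and 412 to 555 CPM, with 7 higher. Muscle markers (8 genes) were at 125 to 188 CPM and 218 to 280.0 CPM, with 4 higher and 3 lower, and macrophage markers (7 genes) at 30.5 to 35.1 CPM and 49.2 to 53.6 CPM, with 5 higher. Endothelial markers (6 genes) were at 306 to 334 CPM and 388 to 428 CPM, with 4 higher. Erythroid markers (9 listed, 8 tested) were at 5423 to 7849 CPM and 6809 to 9751 CPM, with 1 higher, and Schwann cell and crest markers (5 listed, 4 tested) at 37.1 to 52.0 CPM and 85.3 to 114 CPM, with 3 higher. Of these cell type markers only Hba-a2 was below 0.1 CPM in a 12 h group, that of C59. At 6 h the mesenchyme markers were already lower in 7 of 8, at 1986 to 2015 CPM in DMSO and 1289 to 1408 CPM in C59, and 5 of 18 S phase genes were lower, at 4795 to 4954 CPM and 4458 to 4550.4 CPM. Of the G2 and mitosis genes 6 of 15 were higher and none lower at 6 h, at 3607 to 3954 CPM in DMSO and 4063 to 4251 CPM in C59, and 4 of 8 erythroid markers were lower, at 4363 to 4778 CPM and 3332 to 4402 CPM. The part of these shifts in the members' differences was not tested.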

How the data were processed

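Libraries (30) were grouped by their titles. Per the study's methods, adapters were removed with Cutadapt 1.16, and STAR 2.7.0e aligned the pairs to mm10. The authors deposited raw counts per gene, for autosomal genes, taken from the STAR run with their own gene models. The authors also deposited FPKM from Cufflinks 2.2.1, with corrections for bias and for multiply mapped reads and no strand. Neither table pools replicates, which came from different embryos. A Phgdh pseudogene in the count table had a median of 2 counts.

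The 10 members and all lists were chosen with earlier results of these data known. Genes named were the members, Axin2, the 3 called genes of each pathway list with the largest change at 12 h, any beyond a log2 fold change of 1, the regulators, the extremes of the cell cycle lists and the 3 genes most like each member. Some genes that this rule names are not reported here. Lias and Mtr, and the value of Tyms at 6 h, were added after their values were seen.

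Protein-coding genes were filtered with filterByExpr (count 10, total 15), scaled by TMM and fitted by the edgeR quasi-likelihood method (version 4.0.16, R 4.3.3), with 6 libraries per time point, 15 for DMSO over time and 30 for interactions. Two-sided p-values were adjusted by Benjamini-Hochberg over all tested genes, with calls at 0.05. Standard errors were derived from the F statistic. Genes were matched to GENCODE M21, and promoters came from RefSeq. The fits were tested on simulated data. Alternatives were DESeq2 1.42.0, limma 3.58.1 on FPKM, other scalings and filters, a block for replicate number, 1 fit of 30 libraries, and single libraries left out. The alternatives for the interactions, and the bound for libraries that stood apart, were chosen after seeing the data.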

Additional observations from a re-analysis of the deposited data

Results flagged for a closer look

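The C59 effect on 8 members differed between time points in the interaction contrasts, which rest on values known when the members were chosen and so are given without p-values. A difference between times of the log2 fold change was below 0 from 6 to 12 h for Gldc (-1.07 ± 0.19, SE), Mthfd2 (-0.99 ± 0.10), Psat1 (-0.91 ± 0.08), Mthfd1l (-0.69 ± 0.13), Shmt1 (-0.65 ± 0.09), Phgdh (-0.61 ± 0.11), Shmt2 (-0.60 ± 0.10) and Mthfd1 (-0.59 ± 0.09).

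From 12 to 18 h the effect moved upward for Mthfd2 (1.15 ± 0.10), Shmt1 (1.15 ± 0.09), Phgdh (0.87 ± 0.11), Mthfd1 (0.77 ± 0.09), Psat1 (0.73 ± 0.08), Mthfd1l (0.69 ± 0.13), Gldc (0.65 ± 0.20) and Shmt2 (0.59 ± 0.10). Without C59 18 h replicate 3 these lay between 0.47 (Shmt2) and 1.12 (Shmt1), and without DMSO 18 h replicate 1 between 0.60 (Gldc, no longer called) and 1.19 (Mthfd2).

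From 12 to 24 h it moved upward for Mthfd2 (1.82 ± 0.10), Shmt1 (1.63 ± 0.09), Psat1 (1.53 ± 0.08), Mthfd1l (1.07 ± 0.13), Phgdh (1.06 ± 0.11), Gldc (1.00 ± 0.20), Shmt2 (0.93 ± 0.10) and Mthfd1 (0.89 ± 0.09). Dixon's test was not applied to groups of 3 libraries.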

How the results depend on the processing

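No called value changed sign under the alternatives run. The count of 8 members lower at 12 h was 8 in each alternative without a fold minimum, and 5 with a log2 fold change beyond 1. With that fold minimum the other counts were 0 at 6, 18 and 24 h, 1 lower and 0 higher for DMSO 24 h against 1 h, and 0 in the steps between. The members' median at 12 h was -0.88 with upper-quartile factors, and with limma on log2 FPKM it was -0.81 (pseudocount 1 added to FPKM) and -0.86 (0.1). At 6 h it was -0.23 and -0.25 with limma, and 5 members were called with all 30 libraries in 1 fit. With limma the counts fell to 0 from 1 to 6 h, to 3 from 12 to 18 h and to 1 from 18 to 24 h in DMSO, and 1 member (Aldh1l2) was called lower from 12 to 24 h with a pseudocount of 1. From 1 to 6 h the count was 1 with DESeq2 size factors or a mean of at least 1 CPM, and 0 without a filter or with all genes.

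Leaving out 1 library gave 0 to 4 members lower at 18 h, 1 to 4 higher at 24 h with a median of 0.0481 to 0.160, and in DMSO 0 to 1 lower from 1 to 6 h, 3 to 8 from 12 to 18 h, 0 to 3 from 18 to 24 h and 0 to 1 higher from 1 to 24 h. The cause of these moves was not tested beyond the fewer libraries.

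Same-numbered libraries did not deviate together (r from -0.13 to 0.10), and the main fits did not pair them. With groups of 3 libraries this correlation cannot exclude a pairing by number. With the replicate number as a block, 7 members were called lower at 6 h, 8 at 12 h, 1 at 18 h and 2 higher at 24 h, and 9 fell in DMSO from 1 to 24 h. Depth limits Aldh1l2, with as few as 35 counts in a library.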
